A study of Mus musculus with 12 samples.

Results

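The miR-181 family was followed in small RNA of the mouse basolateral amygdala. Its members were taken by name from the table of raw counts, as every mature miRNA whose name begins with mmu-miR-181a, mmu-miR-181b, mmu-miR-181c or mmu-miR-181d, and lines repeated for a second precursor were kept once. This gave 8 members from 10 lines, among 1060 miRNAs in all. They are 4 5p members (mmu-miR-181a-5p, mmu-miR-181b-5p, mmu-miR-181c-5p and mmu-miR-181d-5p) and 4 3p members (mmu-miR-181a-1-3p, mmu-miR-181b-1-3p, mmu-miR-181c-3p and mmu-miR-181d-3p). All 8 were found in the RefSeq tables.

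A miRNA is cut from a hairpin precursor, and 1 of the arms is usually loaded into an Argonaute protein as the guide strand while the other, the passenger strand, is mostly degraded. The guide finds messenger RNAs through its seed, bases 2 to 8 from the 5′ end. The miR-181 family is conserved among vertebrates, is abundant in brain and in developing lymphocytes, and is known in lymphocytes for tuning the strength of antigen receptor signalling and in rat neurons for acting on a glutamate receptor messenger RNA. Its guide strands are the 5p arms.

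The 12 libraries came from male C57BL/6J mice of 10 weeks, with 3 mice in each of 4 groups, and the sources name no allele or injected agent in any group. In the F group (fear memory formation) tones ended in foot shocks. The E group (extinction) received this conditioning and, a day later, repeated tones without shock in another context. The RE group (retrieval-extinction, which the study calls updating) heard a single retrieval tone ahead of such extinction training. Control mice (C) met the tones of conditioning but no shock. Tissue was taken an hour after the last training, with C mice timed like F mice, which places the E and RE samples a day later in the protocol. There was a single control group for all procedures, so later sampling and further handling cannot be told apart from extinction itself in E against C and RE against C. The same difference in timing and handling lies in E against F and RE against F. The sample labels name the amygdala, whereas the submitters' design note speaks of retinal profiles. This was not resolved.

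The sequences of the members show why the family is read as a unit on the 5p side and why its members can be hard to separate by counting. The mature sequences are printed as the count table gives them, 5′ to 3′, with the seed in capitals.
mmu-miR-181a-5p: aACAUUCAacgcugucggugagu
mmu-miR-181b-5p: aACAUUCAuugcugucggugggu
mmu-miR-181c-5p: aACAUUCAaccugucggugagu
mmu-miR-181d-5p: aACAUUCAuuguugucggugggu
mmu-miR-181a-1-3p: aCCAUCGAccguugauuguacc
mmu-miR-181c-3p: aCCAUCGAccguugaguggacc
mmu-miR-181b-1-3p: cUCACUGAacaaugaaugc
mmu-miR-181d-3p: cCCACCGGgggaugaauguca

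The seed ACAUUCA was shared by the 4 5p members and by no other miRNA of the table. Counting positions from the 5′ end, with the base of the first named miRNA first, mmu-miR-181b-5p differed from mmu-miR-181a-5p by A9U, C10U and A21G. mmu-miR-181d-5p differed from mmu-miR-181a-5p by A9U, C10U, C12U and A21G, and from mmu-miR-181b-5p by C12U alone. mmu-miR-181c-5p, of 22 bases, lies 1 edit from mmu-miR-181a-5p, of 23 bases. Among the 3p arms, mmu-miR-181a-1-3p and mmu-miR-181c-3p shared the seed CCAUCGA, which no other miRNA of the table had, and differed by U16G and U19G. The handling of reads that match more than 1 member was not given in the sources used here, so part of the count of a member can stem from its nearest relative. The mature forms of RefSeq are longer than those of the table for mmu-miR-181b-5p, with 24 against 23 bases, and for mmu-miR-181b-1-3p, with 21 against 19 bases.

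The family is encoded in 3 clusters of paired hairpins, placed here in the build GRCm38.p6 of RefSeq and GENCODE. Mir181a-1 (chr1:137966455-137966541, plus strand) and Mir181b-1 (chr1:137966639-137966718, plus strand) lie 97 bases apart within the noncoding gene Gm4258 and opposite to the lincRNA Gm26936, and an exon of the lincRNA A430106G13Rik overlaps both. Mir181a-2 (chr2:38852735-38852810, plus strand) and Mir181b-2 (chr2:38853830-38853918, plus strand) lie 1019 bases apart, on the strand opposite to the coding gene Nr6a1, and an exon of Gm44144 lies opposite to Mir181b-2. Mir181c (chr8:84178873-84178961, minus strand) and Mir181d (chr8:84178716-84178787, minus strand) lie 85 bases apart within the coding gene Nanos3, without overlap with an annotated exon of it. mmu-miR-181a-5p and mmu-miR-181b-5p therefore pool reads of the clusters on chromosomes 1 and 2, whereas mmu-miR-181a-1-3p can come only from chromosome 1 and the c and d members only from chromosome 8. Both hairpins of the chromosome 1 cluster and the hairpin of Mir181d are shown from RefSeq with the stretches that the count table lists as mature in capitals, since the values below are read by arm and by cluster.
Mir181a-1: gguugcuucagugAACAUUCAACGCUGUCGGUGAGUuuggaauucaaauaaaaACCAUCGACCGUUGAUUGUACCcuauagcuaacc
Mir181b-1: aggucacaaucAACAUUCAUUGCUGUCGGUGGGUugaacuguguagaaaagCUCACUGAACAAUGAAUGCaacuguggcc
Mir181d: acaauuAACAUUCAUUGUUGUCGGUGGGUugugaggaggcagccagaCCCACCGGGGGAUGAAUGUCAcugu

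The libraries held between 1093194 and 2353896 counts, of which the family took 0.339% to 0.441%. The leading miRNA was let-7g-5p in 4 libraries, 1 of each group (F1, E2, RE4 and C2), and miR-148a-3p in the other 8. The 4 are called here the let-7g-led libraries. They are a feature of the data and not of the labels, each group holds 1 of them, and the reason for it was not given in the sources used here. Values are given as CPM, counts per 1e+06 after TMM scaling, and a fold change is the log2 of the first group over the second from edgeR's quasi-likelihood fit of all 12 libraries. The study's criterion, as its methods give it, asks for both a p under 0.05 and a log2 fold change of 1 or more in either direction. For its RNA network of RE against E the study also screened miRNAs with a lower fold change limit, which was not applied here. Adjusted p-values follow Benjamini and Hochberg, over the 431 miRNAs tested.

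The guide strand of miR-181a carried the family. Over the 12 libraries mmu-miR-181a-5p made up 46.9% of all miR-181 counts, mmu-miR-181d-5p 23.6%, mmu-miR-181b-5p 15.2% and mmu-miR-181c-5p 3.27%. The 3p arms followed with 9.24% for mmu-miR-181a-1-3p, 1.67% for mmu-miR-181c-3p, 0.101% for mmu-miR-181b-1-3p and 0.00285% for mmu-miR-181d-3p. Shares between members also carry the ligation and amplification of each sequence, whose part was not tested. By mean CPM, mmu-miR-181a-5p ranked at 58 of the 431 miRNAs tested, mmu-miR-181d-5p at 87, mmu-miR-181b-5p at 112, mmu-miR-181a-1-3p at 127, mmu-miR-181c-5p at 184 and mmu-miR-181c-3p at 220. The other 2 members did not pass the filter on low counts and were not tested. mmu-miR-181b-1-3p had 0 to 14 counts per library, 71 in all, and the 2 counts of mmu-miR-181d-3p were both in library C3.

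Across training, no member was called. Of the 6 members tested, 0 passed the criterion in any of the 6 comparisons, and 0 had an adjusted p under 0.05 in edgeR's quasi-likelihood test. Over all 431 miRNAs the criterion called 1.16% in F against C, 0.696% in E against C, 2.78% in RE against C, 0.928% in RE against E, 0.696% in RE against F and 1.62% in E against F, and the adjusted p called 0% in each. A test for any difference among the 4 groups also called 0 members and 0% of all miRNAs. At an unadjusted p under 0.05 this test had 0 of the 6 members and 12 of the 431 miRNAs by edgeR, and 2 members by DESeq2, which at an adjusted p called 0 members and 3 of all miRNAs. Of the 36 member intervals, that is 6 members in 6 comparisons, those of mmu-miR-181a-1-3p in F against C, RE against C and RE against E were the only ones that reached past a log2 fold change of 1.

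**Figure D1:**
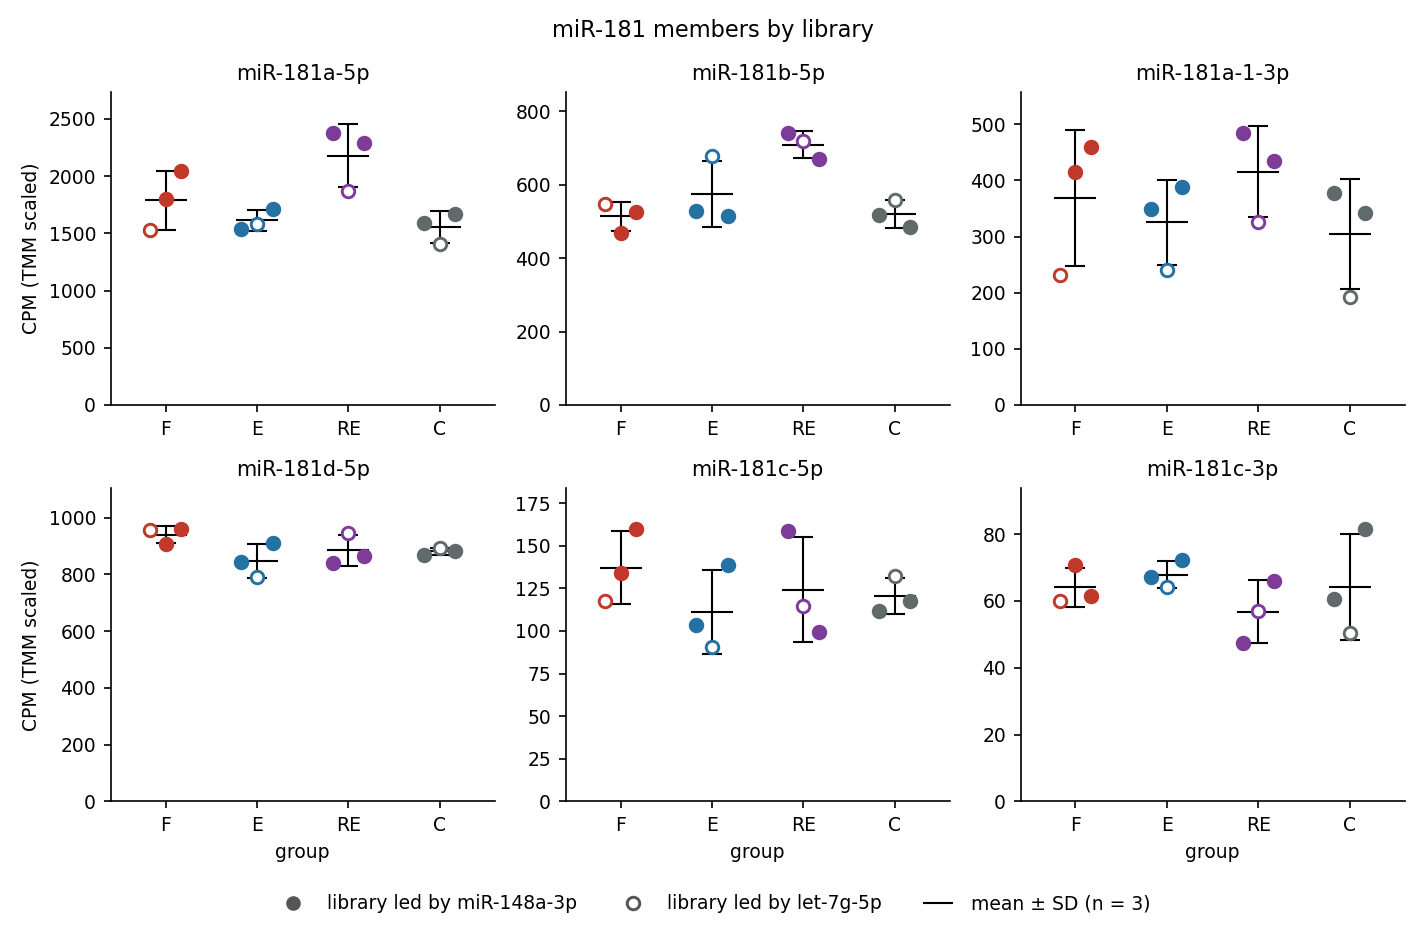
CPM after TMM scaling (vertical axes, from 0) of the 6 tested miR-181 members in the 12 libraries by group (horizontal axes); points are libraries, open points the let-7g-led ones, and bars the mean and SD of 3 libraries. mmu-miR-181a-5p and mmu-miR-181b-5p average 2179 and 709 CPM in RE libraries against 1555 and 519 CPM in C libraries, whereas mmu-miR-181d-5p lies between 791 and 960 CPM throughout.

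Members of the a and b clusters are described first. mmu-miR-181a-5p, the most abundant guide, had 1528, 1797 and 2045 CPM in F libraries, 1539, 1583 and 1716 CPM in E libraries, 2379, 1867 and 2293 CPM in RE libraries, and 1588, 1403 and 1673 CPM in C libraries. With this scaling the 3 RE libraries lay above all E and C libraries, while their lowest value fell inside the range of F. How many of all miRNAs separate in this way was not counted, so this order is a description only. Scaled by library totals, RE4 stood at 1750 counts per 1e+06 and E2 at 1779, so RE and E overlapped, while RE still lay above C. The group means were 1790 ± 259 CPM in F, 1613 ± 92.4 CPM in E, 2179 ± 274 CPM in RE and 1555 ± 138 CPM in C (SD, n = 3 each). The log2 fold change was 0.49 (SE 0.18, 95% interval 0.08 to 0.89, edgeR adjusted p = 0.744) in RE against C and 0.43 (SE 0.18, edgeR adjusted p = 0.999) in RE against E. It was smaller in RE against F, with 0.28 (SE 0.18), in F against C, with 0.20 (SE 0.18), and in E against C, with 0.05 (SE 0.18).

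mmu-miR-181b-5p, the guide of the hairpins that neighbour Mir181a-1 and Mir181a-2, had 546, 469 and 526 CPM in F libraries, 528, 678 and 515 CPM in E libraries, 741, 718 and 668 CPM in RE libraries, and 517, 558 and 484 CPM in C libraries. With this scaling RE libraries did not overlap with F or C libraries, and overlapped with E through library E2. The share of all miRNAs that do the same was not counted. Scaled by library totals, RE libraries stood at 630 to 701 counts per 1e+06 and C2 at 688, so RE and C overlapped too. The means were 514 ± 40.0 CPM in F, 574 ± 90.6 CPM in E, 709 ± 37.1 CPM in RE and 519 ± 37.5 CPM in C (SD, n = 3 each). The log2 fold change was 0.45 (SE 0.17, 95% interval 0.06 to 0.83, edgeR adjusted p = 0.744) in RE against C. In RE against F it was 0.46 (SE 0.17, edgeR adjusted p = 1.00) and in RE against E 0.31 (SE 0.17, edgeR adjusted p = 0.999). In F against C it was -0.02 (SE 0.17).

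mmu-miR-181a-1-3p, the passenger strand of Mir181a-1, had 231, 415 and 460 CPM in F libraries, 348, 241 and 388 CPM in E libraries, 485, 326 and 434 CPM in RE libraries, and 378, 192 and 343 CPM in C libraries. In every group the lowest library was the let-7g-led one, and the groups overlapped. The log2 fold change in RE against C was 0.45, close to that of its own guide strand, but with an SE of 0.34 and a 95% interval of -0.30 to 1.19. The interval was wide enough to hold both no difference and a doubling.

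The c and d cluster gave other values. mmu-miR-181d-5p, its abundant guide, had 957, 906 and 960 CPM in F libraries, 843, 791 and 909 CPM in E libraries, 841, 947 and 866 CPM in RE libraries, and 869, 894 and 881 CPM in C libraries. All groups overlapped except F with C, where the F libraries lay slightly above, again without a share over all miRNAs to set beside it. The log2 fold change was 0.01 (SE 0.15, 95% interval -0.33 to 0.34) in RE against C, 0.06 (SE 0.15) in RE against E and 0.09 (SE 0.15) in F against C.

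mmu-miR-181c-5p, the scarce guide of the same cluster, had 118, 134 and 160 CPM in F libraries, 103, 90.8 and 139 CPM in E libraries, 159, 115 and 99.2 CPM in RE libraries, and 112, 132 and 117 CPM in C libraries. The ranges of all groups overlapped. Its log2 fold change was 0.04 (SE 0.24, 95% interval -0.50 to 0.58) in RE against C, and the difference farthest from 0 was -0.31 (SE 0.24) in E against F. mmu-miR-181c-3p, the passenger strand of Mir181c, lay between 47.4 and 81.5 CPM, and its log2 fold change was -0.17 (SE 0.23) in RE against C and -0.25 (SE 0.23) in RE against E. Its groups also overlapped, and its counts of 49 to 129 per library limit the precision.

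**Figure D2:**
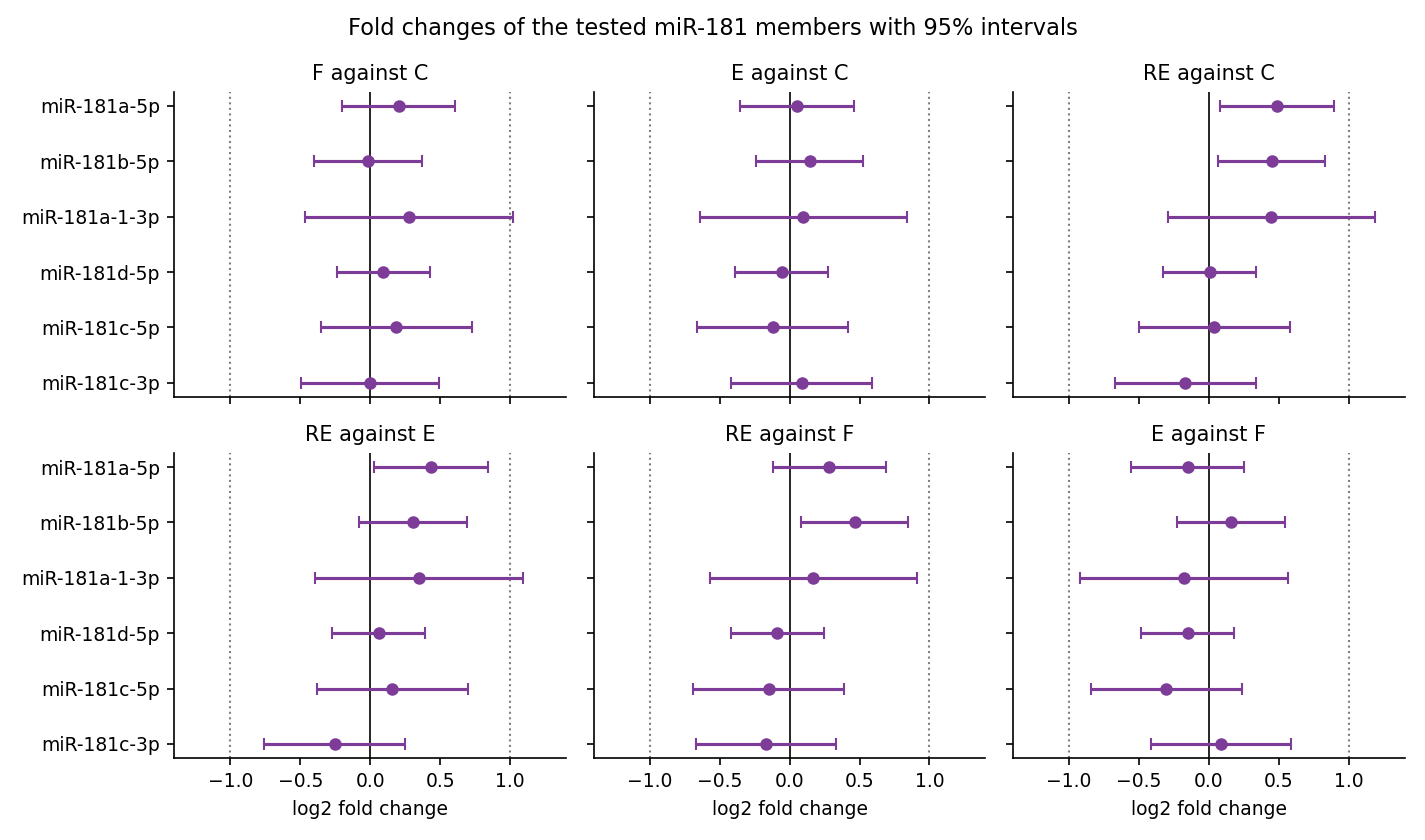
Log2 fold changes (horizontal axes, first group over second) of the 6 tested members in the 6 comparisons, with 95% intervals from edgeR; dotted lines mark a log2 fold change of 1 in either direction. In RE against C the 3 members of the a and b hairpins lie between 0.45 and 0.49, whereas those of the c and d hairpins lie between -0.17 and 0.04.

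In RE against C, 5 of the 6 members had a fold change above 0 and 1 below, with a median of 0.24, beside 241 above and 190 below with a median of 0.06 over all 431 miRNAs. At an unadjusted p under 0.05 stood 2 members, mmu-miR-181a-5p and mmu-miR-181b-5p, among 24 miRNAs, or 5.57% of all. In RE against E, which sets updating against plain extinction, the median of the members was 0.23 and that of all miRNAs 0.05, and 1 member, mmu-miR-181a-5p, stood among 10 miRNAs at an unadjusted p under 0.05. In RE against F, which sets updating against conditioning but also differs in sampling day and handling, the median was 0.04 against 0.00 over all miRNAs. There 1 member, mmu-miR-181b-5p, stood among 9 at an unadjusted p under 0.05. In F against C, E against C and E against F 0 members reached an unadjusted p under 0.05, with medians of 0.14, 0.07 and -0.15 for the members and 0.05, 0.01 and -0.08 for all miRNAs. The 3 comparisons of RE share the same RE libraries, so their values are not independent. A change in the number of cells that make these miRNAs and a change in their level per cell cannot be told apart in tissue.

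The call on mmu-miR-181a-5p in RE against C turned on how the let-7g-led libraries were treated. With a term for the library set in the edgeR fit, its log2 fold change was 0.48 (SE 0.11, 95% interval 0.25 to 0.72, adjusted p = 0.0454), and 1 of 6 members was called beside 1.62% of all 431 miRNAs. mmu-miR-181b-5p, at 0.45 (adjusted p = 0.0613), and mmu-miR-181a-1-3p, at 0.49 (adjusted p = 0.0775), were not called. By DESeq2 with the same term all 3 were called in RE against C, with adjusted p-values of 0.00769, 0.0325 and 0.0325, beside 8.07% of the miRNAs that received an adjusted p. That fit also called mmu-miR-181a-5p in RE against E (adjusted p = 0.0202, beside 4.44%), mmu-miR-181b-5p in RE against F (adjusted p = 0.0267, beside 4.88%), and both in the test for any difference among the groups (adjusted p = 0.0193 and 0.0295, beside 8.06%). Without the let-7g-led libraries, edgeR gave 0.49 (SE 0.13, adjusted p = 0.107) for mmu-miR-181a-5p in RE against C.

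The call did not hold through most fits with the term. Of 16 fits with the term, 3 had mmu-miR-181a-5p at an adjusted p under 0.05 in RE against C, and the adjusted p ran between 0.00769 and 0.256. It was 0.0643 with DESeq2's size factors and 0.176 with library totals in edgeR, and 0.0408 to 0.256 when 1 library was left out, where only the fit without E2 kept the call. The log2 fold change itself ran between 0.33 and 0.53 in these fits. Since the term was chosen with the data known, these values describe how the call depends on it. When counts were scaled by library totals instead, the median of all miRNAs in RE against C shifted by -0.16 (log2). Without the term, mmu-miR-181a-5p then had 0.34 and mmu-miR-181b-5p 0.28.

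**Figure D3:**
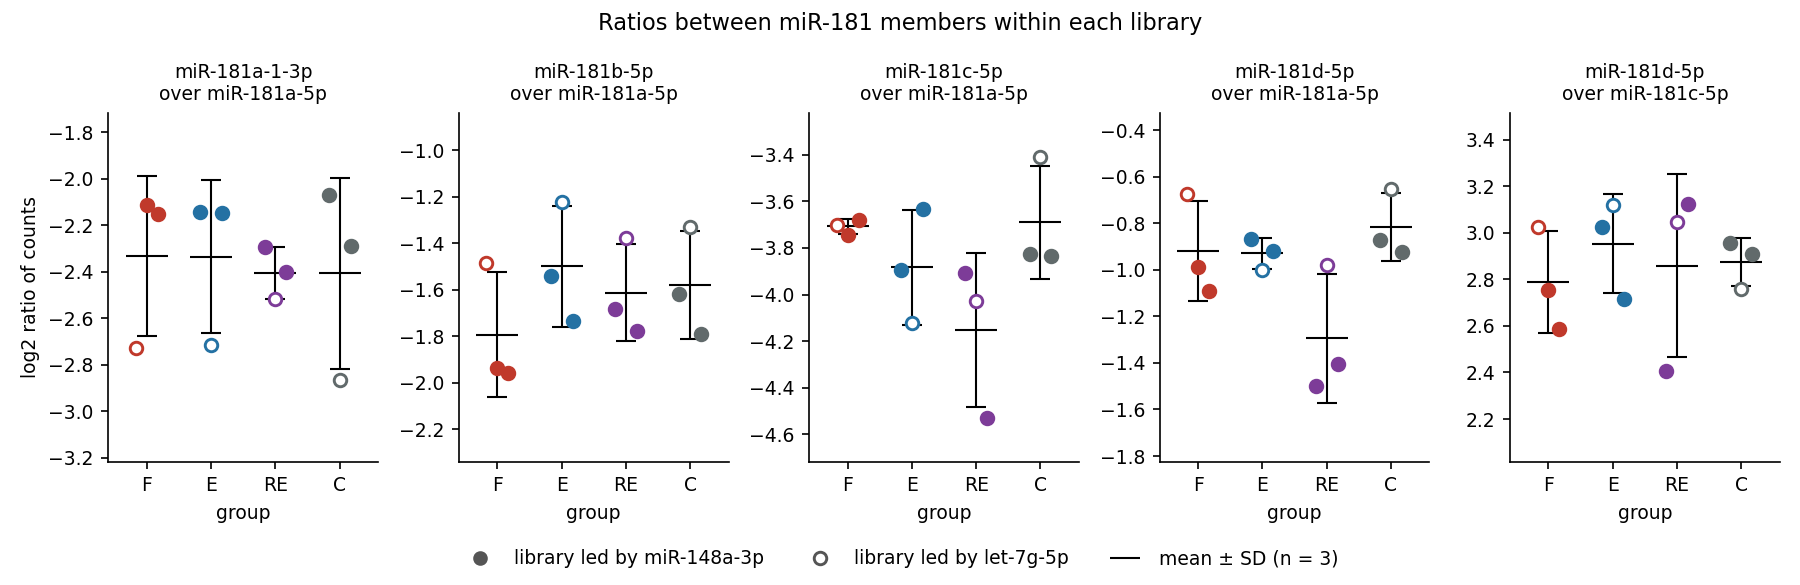
Log2 ratio of the counts of 2 members within a library (vertical axes, all spanning the same range) by group (horizontal axes) for 5 pairs; points are libraries, open points the let-7g-led ones, and bars the mean and SD of 3 libraries. mmu-miR-181d-5p over mmu-miR-181a-5p averages -1.29 in RE libraries against -0.81 in C libraries, and in the 2 leftmost panels the open points lie apart from the filled ones.

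Ratios of members within a library do not depend on scaling, and 5 of them were tested over the 4 groups by an exact permutation test of all 15400 regroupings of the libraries. mmu-miR-181d-5p over mmu-miR-181a-5p was 0.626, 0.504 and 0.469 in F libraries, 0.548, 0.4996 and 0.530 in E libraries, 0.353, 0.507 and 0.378 in RE libraries, and 0.547, 0.637 and 0.527 in C libraries. Libraries RE3 and RE5 had the lowest ratios of all, and RE4, the let-7g-led one, lay inside the range of F and E. On the log2 scale the means were -0.92 ± 0.22 in F, -0.93 ± 0.07 in E, -1.29 ± 0.28 in RE and -0.81 ± 0.15 in C (SD, n = 3 each), and the groups did not differ past the threshold (exact permutation p = 0.0720, adjusted p = 0.294 over the 5 ratios).

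mmu-miR-181c-5p over mmu-miR-181a-5p was likewise lowest in a RE library, 0.0433 in RE5, and highest in a C library, 0.0942 in C2. Its log2 means were -3.71 ± 0.03 in F, -3.88 ± 0.25 in E, -4.15 ± 0.33 in RE and -3.69 ± 0.24 in C, with an exact permutation p of 0.118 and an adjusted p of 0.294. The remaining ratios gave no difference past the threshold either. They are mmu-miR-181b-5p over mmu-miR-181a-5p (exact permutation p = 0.528, adjusted p = 0.880), mmu-miR-181a-1-3p over mmu-miR-181a-5p, the passenger over the guide strand (p = 0.973, adjusted p = 0.973), and mmu-miR-181d-5p over mmu-miR-181c-5p (p = 0.889, adjusted p = 0.973). For mmu-miR-181b-5p over mmu-miR-181a-5p, which differed between the library sets, centring within the sets gave an exact permutation p of 0.0159 and an adjusted p of 0.0794, still not past the threshold. The ratio of mmu-miR-181d-5p over mmu-miR-181c-5p, between the guides of a single cluster, spanned 5.30 to 8.73 over the 12 libraries.

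The miR-181 values of the let-7g-led libraries are given as a description without a test because these libraries were picked from the data. mmu-miR-181a-1-3p stood at 192 to 326 CPM in the 4 and at 343 to 485 CPM in the other 8, a log2 difference of the means of -0.73. It was the only 1 of the 6 tested members without overlap between these sets, beside 41.8% of the 431 miRNAs tested, and this count is no more than a description of sets picked from the data. Its log2 ratio over mmu-miR-181a-5p was -2.87 to -2.52 in the 4 and -2.40 to -2.07 in the other 8. mmu-miR-181b-5p over mmu-miR-181a-5p went the other way, with -1.48 to -1.22 in the 4 and -1.96 to -1.54 in the other 8. How many ratios of other miRNAs separate these sets was not counted. The difference for single members was -0.23 for mmu-miR-181a-5p, 0.18 for mmu-miR-181b-5p, -0.17 for mmu-miR-181c-3p, -0.16 for mmu-miR-181c-5p and 0.02 for mmu-miR-181d-5p, beside a median size of 0.61 over all 431 miRNAs. The sets thus differed less in the other 5 members than in the median miRNA.

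mmu-miR-181d-5p varied little between libraries. The SD of its log2 CPM over the 12 libraries was 0.08, and 0 of the 431 miRNAs had a smaller one, with a median of 0.48. Among the 58 miRNAs within a 2-fold range of its mean level, itself included, the median was 0.39. Its rank from the lowest SD was 1 with TMM scaling or DESeq2's size factors and 6 with library totals, and in the 8 libraries that are not let-7g-led it was 2 or 3, out of 431. For the other members the SD over the 12 libraries was 0.21 for mmu-miR-181c-3p, 0.23 for mmu-miR-181b-5p, 0.24 for mmu-miR-181a-5p, 0.25 for mmu-miR-181c-5p and 0.42 for mmu-miR-181a-1-3p. Within the 8 libraries, with TMM scaling, they ranked at 110 for mmu-miR-181a-1-3p, 167 for mmu-miR-181c-3p, 169 for mmu-miR-181b-5p, 186 for mmu-miR-181a-5p and 211 for mmu-miR-181c-5p, nearer the middle. The ranking was looked at after the values were known, and a steady level relative to scaled totals does not by itself show a constant amount per cell.

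**Figure D4:**
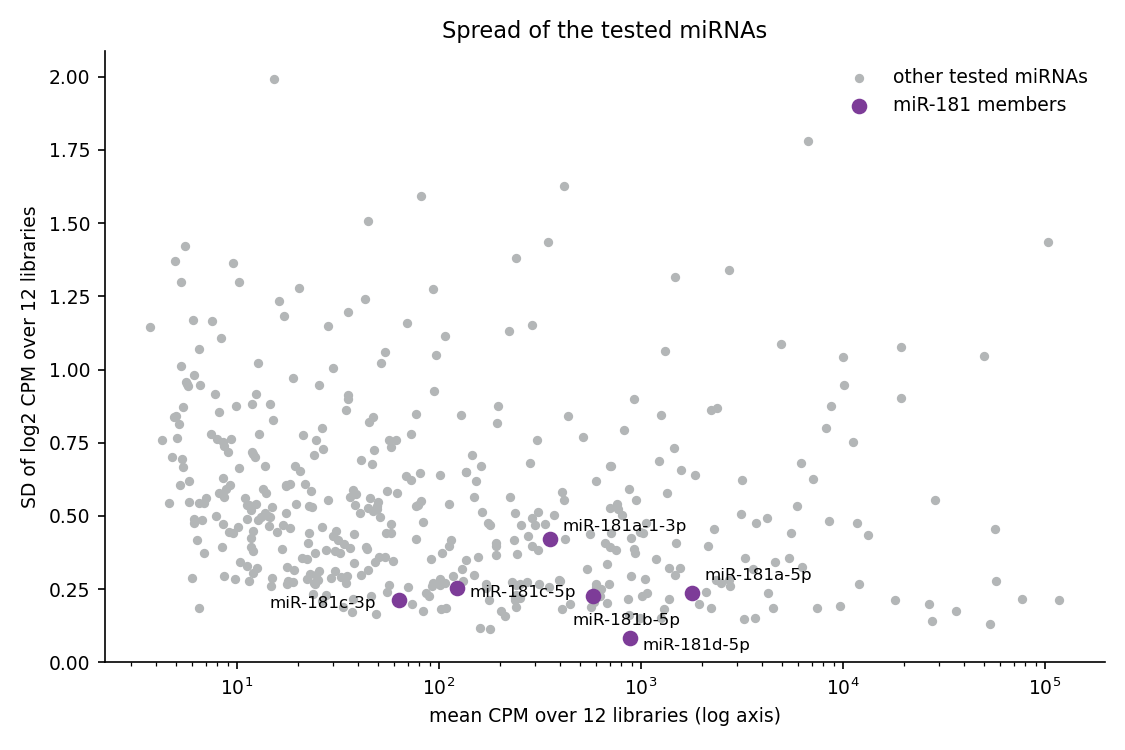
SD of log2 CPM over the 12 libraries (vertical axis, from 0) against mean CPM (horizontal axis, log) for the 431 tested miRNAs; large points are the 6 tested miR-181 members. mmu-miR-181d-5p has the lowest SD, 0.08, against a median of 0.48 over all; within the 8 libraries that are not let-7g-led its rank is 3 and the other members rank at 110 to 211 of 431.

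Summed over its 8 members, the family stood at 3440, 3796 and 4219 CPM in F libraries, 3430, 3451 and 3745 CPM in E libraries, 4660, 4029 and 4432 CPM in RE libraries, and 3528, 3233 and 3586 CPM in C libraries. With TMM scaling all RE libraries lay above all E and C libraries, and library F3 lay inside the range of RE. How often other miRNAs separate in this way was not counted. By share of the library total this separation was lost, since RE4 stood at 0.378%, against 0.387% in E2 and 0.398% in C2. The means were 3818 ± 390 CPM in F, 3542 ± 176 CPM in E, 4374 ± 319 CPM in RE and 3449 ± 189 CPM in C (SD, n = 3 each). The log2 ratio of the means was 0.34 in RE over C, and 0.19 when library totals replaced TMM. No p is given for a sum over members that were chosen with results known.

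Marker miRNAs of cell types were set beside these values. Of the 15 neuron-enriched miRNAs, 0 passed an adjusted p in any comparison, and the summed level was 153139 to 201392 CPM in F libraries, 141183 to 155725 CPM in E libraries, 174911 to 195612 CPM in RE libraries and 127589 to 183921 CPM in C libraries. With TMM scaling all RE libraries thus lay above all E libraries in this sum, while RE and C overlapped. The same order of RE and E was seen for mmu-miR-181a-5p and the summed family with this scaling. Scaled by library totals, RE and E overlapped in both, and the neuron-enriched sum was not computed that way. Abundant markers weigh most in the sum, such as mmu-miR-128-3p and mmu-miR-127-3p with means of 57267 and 53429 CPM over the 12 libraries. Single markers went both ways, with log2 fold changes of -0.26 to 0.54 in RE against E. The median log2 fold change of the neuron-enriched list was 0.07 in RE against C and 0.10 in RE against E. The 6 markers of leukocytes and microglia, cells in which miR-181 is also known, summed to 958 to 1116 CPM in RE and 805 to 1149 CPM in C libraries, and to 805 to 958 CPM in the let-7g-led libraries, against 1088 to 1392 CPM in the other 8. Both endothelial markers together were at 4920 to 6792 CPM in the let-7g-led libraries and at 9841 to 11574 CPM in the other 8, without overlap. Single miRNAs without overlap between these sets, which were picked from the data, made up 41.8% of the 431 tested. The part of the markers in the miR-181 values was not tested.

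The other lists had 0 members past an adjusted p as well. By the criterion, the oligodendrocyte list had 1 of 3 miRNAs called in RE against F and 1 in E against F, and the list of mural cells, which wrap vessels, had 1 of 3 tested in E against C, 2 in RE against E and 2 in E against F. All 3 mural miRNAs had fold changes below 0 in RE against E, between -1.45 and -0.997, and above 0 in E against C, between 0.78 and 1.09, and in E against F, between 0.97 and 1.50. Of these, mmu-miR-143-3p and mmu-miR-143-5p are the 2 arms of 1 hairpin, so the 3 mural miRNAs are not separate markers. Their summed level was 5001 to 8242 CPM in RE libraries, below the 9781 to 27912 CPM of all E libraries, and its part in the miR-181 values of RE against E was not tested. The list of choroid plexus and ependyma had 1 of 4 tested in RE against C, and the erythrocyte list had 0 of 4 throughout. Over all 431 miRNAs the criterion called 0.696% in E against C, 0.696% in RE against F and 0.928% in RE against E. It called 1.62% in E against F and 2.78% in RE against C. No listed marker that the table holds was at 0 in every library.

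The miRNAs most like mmu-miR-181a-5p were ranked by Pearson's r of log2 CPM over the 12 libraries, given as a description since the libraries share a scaling and fall into sets. Outside the family the highest was a predicted miRNA whose sequence lies within miR-24-3p, with r of 0.93. It was followed by mmu-miR-27b-3p (0.84), mmu-miR-1843a-5p (0.84), mmu-miR-34a-5p (0.83) and mmu-miR-411-3p (0.82). In the 8 libraries that are not let-7g-led these 5 had r of 0.91, 0.90, 0.92, 0.88 and 0.76. Within the family, r with mmu-miR-181a-5p was 0.79 for mmu-miR-181a-1-3p, 0.49 for mmu-miR-181b-5p, 0.35 for mmu-miR-181c-5p, 0.02 for mmu-miR-181d-5p and -0.16 for mmu-miR-181c-3p. In those 8 libraries it was 0.89 for mmu-miR-181a-1-3p and 0.81 for mmu-miR-181b-5p. The members of chromosome 8 had lower values there, with 0.39 for mmu-miR-181c-5p, 0.00 for mmu-miR-181d-5p and -0.59 for mmu-miR-181c-3p. Over the 12 libraries mmu-miR-181b-5p and mmu-miR-181c-5p lay close together, at 0.49 and 0.35.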

How the data were processed

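Small RNA of 12 basolateral amygdala samples was sequenced, 3 in each of the F, E, RE and C groups, and each library took its group and number from its label (RE libraries carry 3 to 5). Per the study's methods, Cutadapt removed adapters, miRDeep2 added predicted miRNAs and Novoalign placed reads on mouse precursors, and the authors deposited the raw count of each mature miRNA; the notes name CASAVA 1.8 and the build hg38, a human build. Their normalized values were not used. The table has 1169 lines, of which 109 repeat another line's sequence and counts. Without these repeats it holds 1060 miRNAs, including 307 predictions. Columns of unknown sample numbered 0. PCR reads without molecular identifiers were counted.

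The tests used edgeR 4.0.16 in R 4.3.3 (TMM, filterByExpr with a minimum count of 10, quasi-likelihood test of all 12 libraries in 1 fit), and log2 CPM used a prior count of 2. SEs were taken from the F statistic. Ratios were compared by exact permutation tests of the between-group sum of squares, counting the regroupings with a value at least as large. SciPy was used to adjust their p-values. The summed level was set out for the same test, which was left out because a sum over chosen members would carry the choice. Alternatives were DESeq2 1.42.0, its size factors, library totals, no filter (minimum count 1), a mean count of 50, the 2 groups alone, a term for the let-7g-led libraries, the other 8 libraries, each library left out, and a replicate block among F, E and C; for ratios, a pseudocount of 0.5 and values centred within the library sets. The term combined with other scalings, with DESeq2 and with a library left out was added after seeing the data. A fold change was given a direction across alternatives only where it exceeded its SE. The steps were tested on simulated data.

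All members by name were described, and non-members only as the 5 miRNAs with the highest Pearson's r to mmu-miR-181a-5p. The lists were neuron-enriched, oligodendrocyte, leukocyte and microglia, endothelial, mural, erythrocyte, and choroid plexus and ependyma. Members, lists and the library sets were chosen with earlier results of these data known. Libraries with the same number deviated together in E and C, with correlations of 0.45, 0.74 and 0.55 for numbers 1, 2 and 3, which met the limit of 0.1 for pairing E with C, while F did not pair with either. The sign of all 9 such correlations among F, E and C followed the library set, although every pair shared a number. It was positive in the 5 pairs within a set and negative in the 4 across sets. Between E and C every such pair lay within a set, so there number and library set cannot be told apart. RE shares only number 3 with the others. Sequences and positions are those of RefSeq and GENCODE M21.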

Additional observations from a re-analysis of the deposited data

How the results depend on the processing

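Of 1331 values recomputed under alternatives for 55 results, 1324 were recorded as unchanged. For a fold change this asked for the same side of the criterion, and for the same direction only where it exceeded its SE. Smaller fold changes could change sign, and that of mmu-miR-181d-5p in RE against C was above 0 in 1 of 35 alternatives. The fold change of mmu-miR-181a-1-3p in RE against C reached at most 0.60, short of the 1 that the criterion asks for. The criterion called 0 members in each comparison under every alternative run. Of the calls at an adjusted p under 0.05, 0 by edgeR without the library-set term, RE against C had 1 with the term and 3 with the term by DESeq2, RE against E 1 and RE against F 1 with the term by DESeq2, and the test for any difference among the 4 groups 2 with the term by DESeq2. With 1 library left out the count in RE against C was 0 to 1. DESeq2 without the term called 0 members. The replicate block among F, E and C left 0 members called in its 3 comparisons, with a log2 fold change of mmu-miR-181a-5p in E against C of 0.05 (SE 0.22), and changed no call. The summed level, RE over C, was 0.34 on the log2 scale, 0.19 with library totals and 0.30 to 0.35 with the size factors, the term or the 8 other libraries. The adjusted p of mmu-miR-181d-5p over mmu-miR-181a-5p was 0.294, 0.0952 in the 8 other libraries, where 105 regroupings allow no p under 0.00952, and 0.0714 to 0.856 with 1 library left out; that of mmu-miR-181b-5p over mmu-miR-181a-5p was 0.880, and 0.0794 when centred within the library sets. The common dispersion was 0.184, and 0.0294 with the term, and with 3 libraries a group the SEs of the members' log2 fold changes were 0.15 to 0.34; mmu-miR-181b-1-3p and mmu-miR-181d-3p were too scarce to compare at this depth.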
